A study of Arabidopsis thaliana with 9 samples.

Results

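Roots of wild-type Arabidopsis thaliana (accession Col-0) grown with cesium were compared directly with roots grown on low potassium. The cesium medium held 0.5 mM KCl plus CsCl, of which the labels state only a volume, 0.3 mL. The low-potassium medium held 0.025 mM KCl and no CsCl, and the control medium held 0.5 mM KCl and no CsCl. The cesium and low-potassium groups therefore differed in both salts, and their parts in a difference cannot be told apart. All plants were unmodified wild type on agarose medium with sucrose, and RNA was taken from whole roots. Plant age and the length of treatment are not given in the labels. Each group had 3 RNA-seq libraries, and the 6 cesium and low-potassium libraries of the 9 in the series entered the comparison. The series' title points to genes of abscisic acid perception and of thiamine synthesis.

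The genes compared were all those whose mean over the 6 libraries was at least 1 FPKM, a fragment count corrected for gene length and library size. This held for 19524 of the 37547 genes in each file. The nearest genes inside this limit were AT3G48480 at 1.001, AT1G57790 at 1.002 and AT2G22590 at 1.003 FPKM, and the nearest outside it were AT4G28140 at 0.9997, AT3G19184 at 0.998 and AT4G31351 at 0.997 FPKM. Values are FPKM as deposited, and every log2 change is cesium minus low potassium on the scale of log2(FPKM + 1), given ± its standard error with 3 libraries a group. Numbers in brackets with ± are such log2 changes. The pseudocount of 1 makes these changes smaller than the true ratio for low genes. A gene is called changed (it rose or fell in cesium roots) where limma's moderated test with an intensity trend gave a Benjamini-Hochberg adjusted p under 0.05 over all 19524 genes. The labels number the libraries of a group as biological replicates, without saying what was separate between them (plates, pools of plants or growth runs), and the p-values measure the spread between these libraries. Beside the genes said below to lie in a shared region, RAB18, RD26, CBL1, KUP2, SEC22, TH1, TENA_E, PYL7, PRK, GUN4, PORB, CRD1, MYC2, ASN1, GDH1, GLT1, NRT1.8, G6PD3, APR1, APR3, SDI2, SULTR2;2, NRAMP1, BHLH101, PAP17, ASA1, CYP81F1, FAR4, SGN3, CASP5, PER64, KNOLLE, AUR1, CYCD6;1, GL3, FRA8, VND6, HSA32, CSD3, ELF3, LUX, EBF2, ETR1, IAA3, ARR6, WRKY33, WRKY40, AT5G61290, AT4G12170 and AT4G12545 also share theirs with a neighbour in the files. Some of their reads may belong to that neighbour. In whole roots, fewer cells of a type and less RNA per cell cannot be told apart.

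Potassium enters root cells through a small set of proteins: the high-affinity transporter HAK5, which works at very low external potassium, and the channel AKT1, which is switched on by the kinase CIPK23 together with the calcium sensors CBL1 and CBL9. Cesium is a chemical relative of potassium that can use some of the same routes and can block potassium channels, so cesium toxicity and potassium shortage share some symptoms. Abscisic acid (ABA) is the hormone of water and osmotic stress. Its PYR/PYL receptors bind ABA and then hold back PP2C phosphatases, which frees SnRK2 kinases to switch on target genes.

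The libraries of the 2 groups separated on the first principal component, which held 61.2% of the variance. The summed FPKM was 715298 to 840390 in cesium libraries and 772355 to 845355 in low-potassium libraries, and 19172 to 19481 genes reached 1 FPKM in each. The files give no counts, so the absolute read depth is unknown. The commonest ratio between libraries of FPKM values under 0.5 put their depth at 98.9% to 103.0% of that of low-potassium replicate 1. Only 13.9% to 19.9% of the genes compared lay close to that commonest ratio, so the relative depth is a rough estimate. The second component (20.2% of the variance) set cesium replicate 3 away from its group. Its correlation with the other cesium libraries across genes was 0.960 and 0.966 on the log scale, against 0.988 between cesium replicates 1 and 2. MT1A, a very abundant metallothionein gene, was listed at 0 in that library and at 70044 to 94117 FPKM in the other 5. The summed FPKM of cesium replicate 3, by which its chloroplast-encoded and mitochondrion-encoded shares are divided, thus holds nothing from MT1A. Whether that 0 is a value lost in quantification was not tested. Chloroplast-encoded genes held 0.184, 0.222 and 0.468% of the summed FPKM in cesium roots, against 0.140, 0.174 and 0.193% in low-potassium roots (exact permutation test, two-sided p = 0.2, with 0.1 the smallest p that 3 against 3 libraries can give). Mitochondrion-encoded genes held 0.0517, 0.0571 and 0.0581% in cesium roots, against 0.0345, 0.0399 and 0.0420% in low-potassium roots (same permutation test, p = 0.1). Root cell markers were present in every library: the lists for root hair growth, Casparian strip, xylem wall and phloem summed to at least 464, 596, 156 and 156 FPKM in cesium libraries and to at least 317, 739, 193 and 126 FPKM in low-potassium libraries.

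In all, 5640 of 19524 genes passed (28.9%), with 2798 higher in cesium roots (14.3%) and 2842 lower (14.6%). The 14.3% and 14.6% are the shares to set beside every list count given below. Without cesium replicate 3 the count was 6120, of which 5049 were shared. Without cesium replicate 2 it was 3601, and without low-potassium replicates 1, 2 and 3 it was 3385, 3061 and 3738. A log2 change of 1 or more in size was seen in 1036 of the passing genes, with 497 higher and 539 lower. The control mean lay nearer to cesium for 3631 of the 5640 passing genes (64.4%) and nearer to low potassium for the other 2009. The control libraries were used only for such positions and entered no test here.

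Potassium uptake genes were mostly lower in cesium roots. Of 15 listed genes 14 were tested, and 9 fell (64.3%), 1 rose and 4 did not pass. HAK5 (AT4G13420) had 2.24, 4.88 and 2.83 FPKM in cesium roots, against 142, 156 and 157 FPKM in low-potassium roots, and the groups were far apart (log2 change -5.19 ± 0.20, adjusted p = 6.09e-05). It had the lowest log2 change of all genes named by the rule of largest change. In control roots HAK5 had 3.68, 4.33 and 4.58 FPKM, in the range of the cesium libraries. The HAK5 promoter window, 250 bases before the start and 50 after it, lies at chr4:7802202-7802501 on the minus strand of TAIR10.1 (RefSeq). It is shown for the gene with the largest fall. Both strands of every promoter were searched for the ABRE (ACGTGNC), then for the I-box (GATAAG), for the auxin response element (TGTCTC) and for the G-box (CACGTG), and none of these is in the HAK5 window.
HAK5: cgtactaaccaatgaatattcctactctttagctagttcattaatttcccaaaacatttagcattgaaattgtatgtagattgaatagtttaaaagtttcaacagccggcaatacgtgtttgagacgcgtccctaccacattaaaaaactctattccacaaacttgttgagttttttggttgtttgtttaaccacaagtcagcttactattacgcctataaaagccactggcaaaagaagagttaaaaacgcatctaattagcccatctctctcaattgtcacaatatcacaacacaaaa

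CIPK9, a kinase of potassium signalling, had 2.25, 1.73 and 1.38 FPKM in cesium roots, against 15.7, 15.9 and 14.0 FPKM in low-potassium roots (log2 change -2.55 ± 0.13, adjusted p = 0.000111). CBL9, one of the calcium sensors that partner CIPK23, had 25.6, 29.2 and 24.3 FPKM in cesium roots, against 57.0, 54.7 and 61.3 FPKM in low-potassium roots (log2 change -1.10 ± 0.096, adjusted p = 0.000496). CIPK23 itself had 74.4, 74.8 and 65.8 FPKM in cesium roots, against 102, 103 and 108 FPKM in low-potassium roots (log2 change -0.54 ± 0.086, adjusted p = 0.00441). All 3 of these signalling genes fell without overlap between the groups. Of all 19524 genes tested, 9236 had no overlap between the groups in either direction. AKT1, the inward potassium channel, had 63.1, 60.0 and 45.1 FPKM in cesium roots, against 99.6, 102 and 103 FPKM in low-potassium roots (log2 change -0.86 ± 0.13, adjusted p = 0.00352), and its region in the files is shared with another gene, so some of its reads may belong to that gene. Control roots had 53.8, 57.6 and 56.8 FPKM of AKT1, near the cesium level.

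Other members of the uptake list changed as well. ARF2, a repressor of HAK5 transcription, fell (-0.63 ± 0.076). CBL1 (-0.47 ± 0.11, adjusted p = 0.0169) fell, and so did KAT3 (-0.57 ± 0.15, adjusted p = 0.0268), a silent channel subunit that modulates AKT1. AIP1, the phosphatase that acts on AKT1 and is also known as HAI2, averaged 1.95 FPKM in cesium roots and 6.08 FPKM in low-potassium roots (-1.21 ± 0.33, adjusted p = 0.0311). RCI3, a peroxidase of the low-potassium response, was the 1 member that rose (0.51 ± 0.13, adjusted p = 0.0273). For 8 of the 10 passing genes the control mean lay nearer to cesium. CBL1 lost its call without cesium replicate 2 (adjusted p = 0.0507) or without low-potassium replicate 1 (0.0515) or 2 (0.0683); its adjusted p was 0.0146 to 0.0683 over the 16 alternatives. KAT3 lost its call without cesium replicate 2 (adjusted p = 0.0575) or without low-potassium replicate 1 (0.0848), 2 (0.0758) or 3 (0.0724); its adjusted p was 0.0113 to 0.0848 over the 16 alternatives. AIP1 lost its call without cesium replicate 1 (adjusted p = 0.0577) or 2 (0.0966), without low-potassium replicate 2 (0.11) or 3 (0.0992) or with no filter (0.0593); its adjusted p was 0.00878 to 0.11 over the 15 alternatives. RCI3 lost its call without cesium replicate 2 (adjusted p = 0.0568), without low-potassium replicate 1 (0.061), 2 (0.103) or 3 (0.0604) or under quantile normalization (0.0522); its adjusted p was 0.0121 to 0.103 over the 16 alternatives.

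Other potassium channels and transporters gave 8 genes lower, 1 higher and 12 not passing among 21 tested. Those lower numbered 5 without low-potassium replicate 2 and 5 without low-potassium replicate 3. The lowest log2 change in this list was that of NPF7.3, a root transporter that loads potassium and nitrate into the xylem, which had 183, 238 and 166 FPKM in cesium roots, against 558, 638 and 535 FPKM in low-potassium roots (log2 change -1.57 ± 0.15, adjusted p = 0.000658). Its region is shared with another gene. KUP10, a member of the KT/HAK/KUP potassium transporters, had 13.6, 11.9 and 11.7 FPKM in cesium roots, against 32.9, 33.5 and 36.3 FPKM in low-potassium roots (log2 change -1.395 ± 0.091, adjusted p = 0.000189), and KUP9 of the same family fell by a similar size (-1.22 ± 0.11). GORK, the outward potassium channel, had 5.32, 5.28 and 5.50 FPKM in cesium roots, against 13.5, 14.6 and 14.5 FPKM in low-potassium roots (log2 change -1.26 ± 0.085, adjusted p = 0.000194). The 1 member that rose was KUP2 (0.41 ± 0.090, adjusted p = 0.0135), and 2 rose without cesium replicate 3. CHX17, a cation/proton exchanger outside the list and one of the 12 largest falls of all genes, had 11.9, 13.4 and 5.25 FPKM in cesium roots, against 131, 131 and 114 FPKM in low-potassium roots (log2 change -3.58 ± 0.29, adjusted p = 0.000377), and the control roots, with 8.76, 8.87 and 9.18 FPKM, resembled the cesium roots. KUP2 lost its call without cesium replicate 2 (adjusted p = 0.0524) or without low-potassium replicate 2 (0.0594); its adjusted p was 0.00335 to 0.0594 over the 16 alternatives.

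Of 5 genes linked to cesium transport, 1 rose and 1 fell, and 2 fell without cesium replicate 1 or cesium replicate 3. ABCG33, an ABC transporter linked to cesium uptake, had 11.1, 11.4 and 9.91 FPKM in cesium roots, against 4.53, 4.49 and 5.26 FPKM in low-potassium roots (log2 change 1.03 ± 0.10, adjusted p = 0.000734). CNGC1, a cyclic nucleotide gated channel, had 11.1, 11.0 and 11.4 FPKM in cesium roots, against 17.5, 17.5 and 18.5 FPKM in low-potassium roots (log2 change -0.63 ± 0.078, adjusted p = 0.00166). Both regions are shared with other genes. ABCG37, the close relative of ABCG33, had a log2 change of -0.60 ± 0.20, adjusted p = 0.061, ZIFL2 of 0.03 ± 0.15, adjusted p = 0.893 and SEC22 of 0.12 ± 0.085, adjusted p = 0.318, and these 3 did not pass. Among 10 proton pump genes, 3 fell and 7 did not pass. AHA2, the main plasma membrane proton pump of roots, had 439, 453 and 315 FPKM in cesium roots, against 1171, 1096 and 1104 FPKM in low-potassium roots (log2 change -1.50 ± 0.15, adjusted p = 0.000841). AHA4 fell by a similar size (-1.41 ± 0.11, adjusted p = 0.00038), in a region shared with another gene. AHA1 also fell (-0.62 ± 0.15, adjusted p = 0.0221). AHA1 lost its call without low-potassium replicate 1 (adjusted p = 0.0779) or 2 (0.0778); its adjusted p was 0.00787 to 0.0779 over the 16 alternatives.

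**Figure D1:**
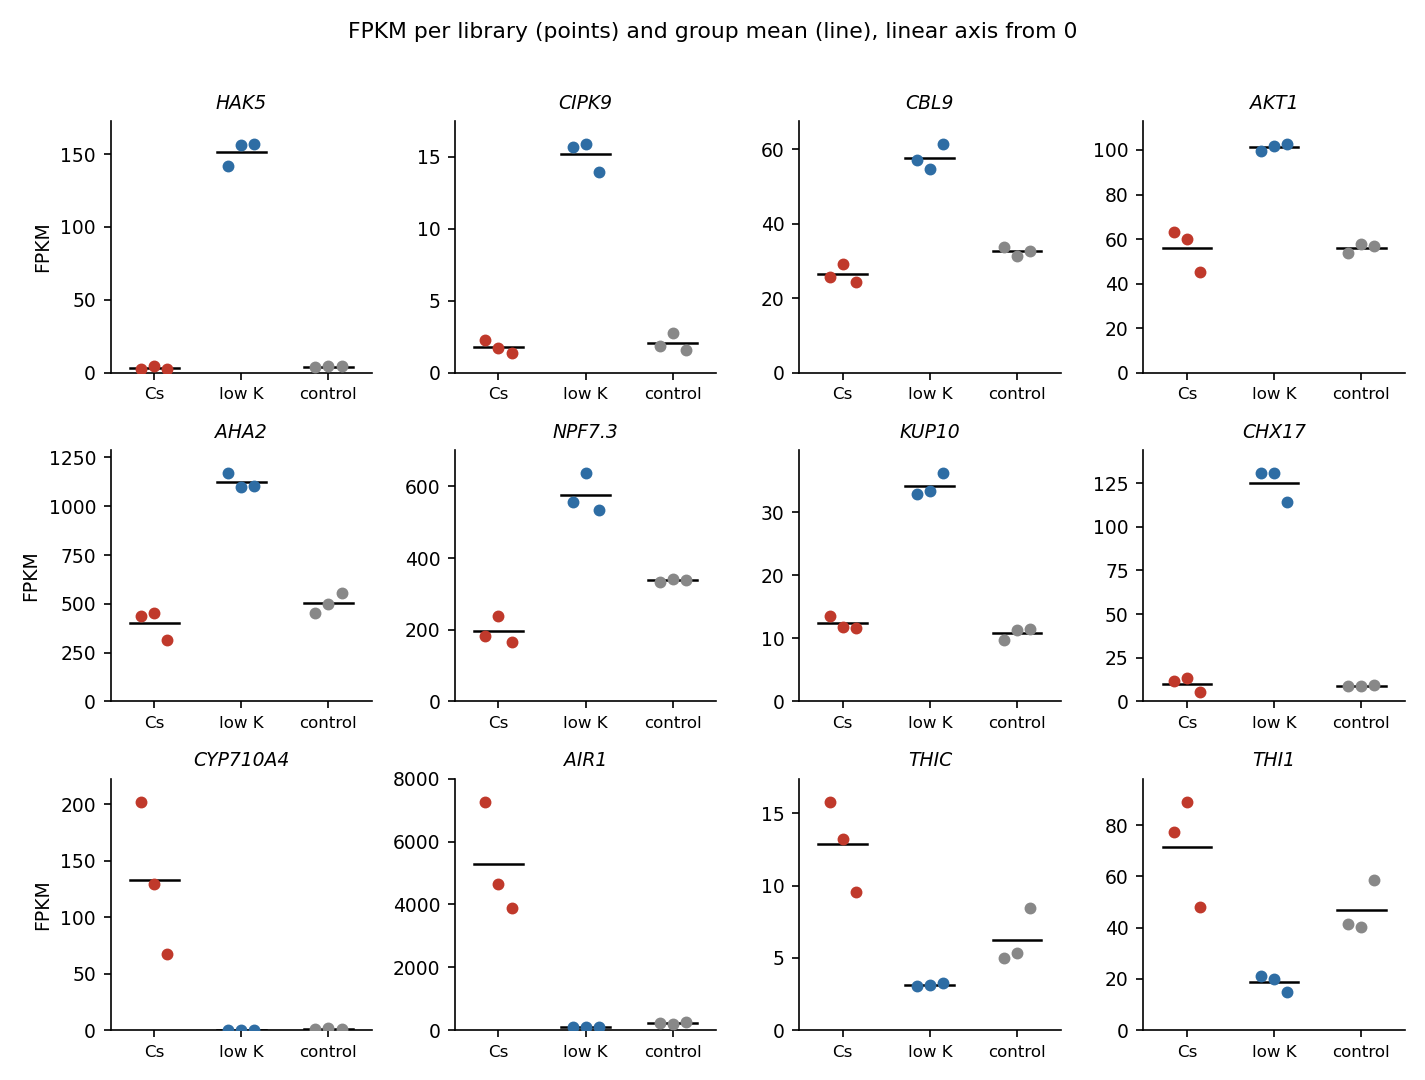
FPKM of 12 genes in each library (points) with the group mean (line), on linear axes from 0, with cesium at the left, low potassium next and control at the right. HAK5, CIPK9, KUP10 and CHX17 were high in the low-potassium libraries alone, while CYP710A4 and AIR1 were high in the cesium libraries alone.

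The genes with the largest rise in cesium roots were led by CYP710A4 (AT2G28860), a cytochrome P450 of the sterol C-22 desaturase family. It had 202, 129.8 and 67.3 FPKM in cesium roots, against 0.406, 0.323 and 0.253 FPKM in low-potassium roots (log2 change 6.52 ± 0.34, adjusted p = 0.000111), and control roots had 1.17, 1.59 and 1.46 FPKM. All 3 cesium libraries were far above the other 6, with cesium replicate 3 lowest among them. Of 15 sterol genes 13 were tested, with 4 higher (2 without cesium replicate 1 and 2 without cesium replicate 2) and 2 lower, so CYP710A4 did not move with the list as a whole. SQE1 (0.80 ± 0.13, adjusted p = 0.00419), which makes the squalene epoxide that sterols start from, rose, as did SQE4 (1.64 ± 0.42, adjusted p = 0.0257) and SMT3 (0.28 ± 0.080, adjusted p = 0.0362). SQE6 (-1.41 ± 0.11, adjusted p = 0.000379) and CYP710A1 (-1.34 ± 0.19, adjusted p = 0.00265) fell. The CYP710A4 promoter window at chr2:12389842-12390141 (minus strand, TAIR10.1) is shown for the gene with the largest rise, and it holds none of the motifs searched. SQE4 lost its call without cesium replicate 1 (adjusted p = 0.0654) or 2 (0.0788) or with no filter (0.0515); its adjusted p was 0.000537 to 0.0788 over the 16 alternatives. SMT3 lost its call without cesium replicate 1 (adjusted p = 0.0557) or 2 (0.0976) or without low-potassium replicate 1 (0.0713), 2 (0.119) or 3 (0.107). The call was also lost under quantile normalization (0.05) or with replicate as a block (0.0684). Its adjusted p was 0.0129 to 0.119 over the 16 alternatives.
CYP710A4: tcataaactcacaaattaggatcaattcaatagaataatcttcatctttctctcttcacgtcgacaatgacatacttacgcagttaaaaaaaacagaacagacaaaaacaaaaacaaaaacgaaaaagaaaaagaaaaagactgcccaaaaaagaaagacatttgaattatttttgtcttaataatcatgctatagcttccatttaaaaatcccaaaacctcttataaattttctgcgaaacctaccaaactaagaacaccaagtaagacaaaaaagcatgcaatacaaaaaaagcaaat

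AIR1 (AT4G12550), a small lipid-transfer type protein named for its induction by auxin in root cultures, had 7273, 4665 and 3899 FPKM in cesium roots, against 103, 96.3 and 92.9 FPKM in low-potassium roots (log2 change 5.69 ± 0.22, adjusted p = 6.09e-05), and its region is shared with another gene. Its neighbour AT4G12545, a lipid-transfer type protein, had 2915, 1925 and 1626 FPKM in cesium roots, against 179, 149 and 139.6 FPKM in low-potassium roots (log2 change 3.74 ± 0.22, adjusted p = 0.000121). LCR85, a small cysteine-rich secreted peptide, had 47.6, 34.3 and 111 FPKM in cesium roots, against 0, 0 and 0 FPKM in low-potassium roots; it was listed at 0 in every low-potassium library, so no fold is given (adjusted p = 0.000165).

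GolS7, which belongs to the galactinol synthases of raffinose sugar synthesis, had 27.6, 14.9 and 7.32 FPKM in cesium roots, against 0, 0 and 0 FPKM in low-potassium roots, again listed at 0 in every low-potassium library (adjusted p = 0.000703). AT3G02620, a stearoyl-acyl carrier protein desaturase, had 343, 239.9 and 165 FPKM in cesium roots, against 7.13, 6.39 and 6.27 FPKM in low-potassium roots (log2 change 4.98 ± 0.23, adjusted p = 9.98e-05). MES1, a methyl esterase, had 177, 114 and 48.1 FPKM in cesium roots, against 5.998, 7.23 and 3.95 FPKM in low-potassium roots (log2 change 3.93 ± 0.43, adjusted p = 0.00108), and its cesium libraries were spread widely. The other genes of the 12 largest rises were AT3G29252, AT5G61290 (a flavin-binding monooxygenase), AT5G38100 (a methyltransferase), AT2G43530 (a knottin-type peptide) and AT4G12170 (a thioredoxin-type protein), with log2 changes of 4.74 ± 0.20, 4.16 ± 0.26, 3.91 ± 0.30, 3.66 ± 0.21 and 3.56 ± 0.24. These 12 were chosen by size among genes whose groups do not overlap, so that separation is part of the choice.

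The 12 largest falls in cesium roots were led by HAK5 and included CHX17, HSP18.2 and RAB18. UMAMIT33, an amino acid transporter type protein, had 10.3, 8.41 and 8.22 FPKM in cesium roots, against 88.8, 103 and 86.6 FPKM in low-potassium roots (log2 change -3.24 ± 0.11, adjusted p = 5.32e-05), in a region shared with another gene. DIR1, a lipid-transfer protein of systemic defence, had 2.35, 3.096 and 3.24 FPKM in cesium roots, against 32.5, 47.2 and 37.9 FPKM in low-potassium roots (log2 change -3.36 ± 0.16, adjusted p = 9.98e-05), also in a shared region. CEP1, a cysteine proteinase, had 8.26, 7.31 and 4.28 FPKM in cesium roots, against 111, 97.6 and 48.8 FPKM in low-potassium roots (log2 change -3.47 ± 0.33, adjusted p = 0.000658). In each of these genes the control roots lay nearer to cesium. AT1G14642, an uncharacterized gene, was listed at 0 in every cesium and every control library and had 21.2, 10.7 and 41.8 FPKM in low-potassium roots (adjusted p = 0.000579). The others were AT5G38910 (a germin-like cupin), AT5G47000 (a peroxidase), AT2G43590 (a chitinase) and AT4G18280 (a glycine-rich protein), with log2 changes of -3.65 ± 0.36, -3.31 ± 0.22, -3.26 ± 0.21 and -3.17 ± 0.22.

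Of 7 thiamine genes, the 2 that make the parts of the vitamin rose and the other 5 did not pass. THIC (AT2G29630), which makes the pyrimidine part, had 15.8, 13.2 and 9.55 FPKM in cesium roots, against 3.02, 3.103 and 3.26 FPKM in low-potassium roots (log2 change 1.72 ± 0.17, adjusted p = 0.00069), in a region shared with another gene. THI1 (AT5G54770), which makes the thiazole part, had 77.4, 89.1 and 48.0 FPKM in cesium roots, against 21.2, 20.06 and 14.8 FPKM in low-potassium roots (log2 change 1.85 ± 0.23, adjusted p = 0.00177). Control roots had 4.97, 5.32 and 8.47 FPKM of THIC and 41.3, 40.4 and 58.7 FPKM of THI1. Both control means lay between the means of the other groups, and the highest control library of THI1 was above cesium replicate 3. TH1, which joins the parts, and TENA_E did not pass, with log2 changes of -0.17 ± 0.087, adjusted p = 0.17 and -0.38 ± 0.15, adjusted p = 0.0961. Of 6 vitamin B6 genes none passed in limma, 0 at an unadjusted p under 0.05, and 1 rose without cesium replicate 3; PDX3, PDX1.2 and PDX1.3 had the smallest adjusted p of 0.228, 0.294 and 0.295.

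ABA genes differed by role. Among the receptors 5 rose and 1 fell of 10 tested, and those higher numbered 3 without cesium replicate 2, 2 without low-potassium replicate 1 and 3 without low-potassium replicate 2. PYL6 had 11.9, 10.4 and 7.89 FPKM in cesium roots, against 1.41, 1.65 and 1.52 FPKM in low-potassium roots (log2 change 2.111 ± 0.15, adjusted p = 0.000237). PYL2 had 15.5, 14.2 and 12.4 FPKM in cesium roots, against 4.29, 4.096 and 4.23 FPKM in low-potassium roots (log2 change 1.52 ± 0.10, adjusted p = 0.000206). PYL3 went the other way and had 0.653, 0.166 and 0.277 FPKM in cesium roots, against 7.36, 5.99 and 4.18 FPKM in low-potassium roots (log2 change -2.31 ± 0.22, adjusted p = 0.000638). PYL8 (0.41 ± 0.095, adjusted p = 0.0179), PYL7 (0.53 ± 0.13, adjusted p = 0.0221) and PYL5 (0.42 ± 0.13, adjusted p = 0.0434) also rose. PYL8 lost its call without low-potassium replicate 1 (adjusted p = 0.0651) or 2 (0.0658); its adjusted p was 0.00708 to 0.0658 over the 16 alternatives. PYL7 lost its call without cesium replicate 2 (adjusted p = 0.0522) or without low-potassium replicate 1 (0.0547); its adjusted p was 0.00786 to 0.0547 over the 16 alternatives. PYL5 lost its call without cesium replicate 1 (adjusted p = 0.0863) or 2 (0.0941), without low-potassium replicate 1 (0.12), 2 (0.0859) or 3 (0.121), with no filter (0.062) or without the trend (0.0544); its adjusted p was 0.0107 to 0.121 over the 16 alternatives.

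Among 11 phosphatases and kinases, 10 fell and 1, HAB2, did not pass (-0.21 ± 0.092, adjusted p = 0.13). HAI2 among these 10 is the same gene as AIP1, which is also counted among the falls of the potassium uptake list. ABI1, a PP2C phosphatase that blocks ABA signalling, had 42.2, 37.9 and 40.8 FPKM in cesium roots, against 66.4, 79.6 and 74.0 FPKM in low-potassium roots (log2 change -0.85 ± 0.096, adjusted p = 0.00118), in a shared region. PP2CA had 26.3, 26.1 and 23.9 FPKM in cesium roots, against 40.9, 43.2 and 42.7 FPKM in low-potassium roots (log2 change -0.71 ± 0.080, adjusted p = 0.00116), and HAI3 had 0.301, 0.478 and 0.306 FPKM in cesium roots, against 3.304, 8.65 and 6.59 FPKM in low-potassium roots (log2 change -2.32 ± 0.28, adjusted p = 0.00149). Calls on 5 of these 10 held in every alternative that tested the gene. The count that fell was 6 without cesium replicate 2, 5 without low-potassium replicate 2 and 6 without low-potassium replicate 3. NCED3, the rate-limiting enzyme of ABA synthesis, had 3.90, 2.72 and 4.17 FPKM in cesium roots, against 11.1, 20.2 and 14.8 FPKM in low-potassium roots (log2 change -1.81 ± 0.22, adjusted p = 0.00148). CYP707A4, an enzyme of ABA breakdown, rose (2.06 ± 0.27, adjusted p = 0.00194) and its relative CYP707A1 fell (-0.75 ± 0.14, adjusted p = 0.00733). ABA1 fell (-0.57 ± 0.15, adjusted p = 0.0245). BG1, which releases ABA from its glucose ester, rose (1.15 ± 0.33, adjusted p = 0.0347). These were the 5 of 10 tested synthesis and breakdown genes that passed. ABA1 lost its call without low-potassium replicate 1 (adjusted p = 0.0594), 2 (0.0883) or 3 (0.069); its adjusted p was 0.0111 to 0.0883 over the 16 alternatives. BG1 lost its call without cesium replicate 1 (adjusted p = 0.0618) or 2 (0.0644), without low-potassium replicate 1 (0.0743), 2 (0.0768) or 3 (0.107) or with no filter (0.0659); its adjusted p was 0.00646 to 0.107 over the 16 alternatives.

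Genes switched on by ABA were lower in cesium roots: 17 of 21 tested fell (81.0%) and none rose (1 under quantile normalization). Of the 17 calls, 13 held in every alternative that tested the gene. Without low-potassium replicate 2, 20 genes were tested and 12 fell, with a median log2 change of -0.92 against -1.27 with all libraries. Summed over the list, the level was 1738, 1520 and 1591 FPKM in cesium roots, against 2786, 4398 and 3062 FPKM in low-potassium roots. RAB18, a dehydrin, had 0.939, 1.66 and 1.72 FPKM in cesium roots, against 16.8, 28.5 and 22.5 FPKM in low-potassium roots (log2 change -3.26 ± 0.21, adjusted p = 0.000174), and control roots were between the groups at 6.38, 7.16 and 3.88 FPKM. RD26, a NAC factor, had 55.6, 41.4 and 40.6 FPKM in cesium roots, against 122, 169.5 and 133 FPKM in low-potassium roots (log2 change -1.603 ± 0.16, adjusted p = 0.000816). COR15A, a cold and drought protein of the chloroplast, had 0.187, 0.0929 and 0.374 FPKM in cesium roots, against 3.25, 2.53 and 4.14 FPKM in low-potassium roots (log2 change -1.81 ± 0.19, adjusted p = 0.00082). RD29A and KIN1 fell by a similar size (-2.10 ± 0.27 and -2.07 ± 0.27), and KIN2, a near copy of KIN1, did not pass (0.21 ± 0.15, adjusted p = 0.316). For 9 of the 17 the control mean lay nearer to low potassium and for 8 nearer to cesium. The ABRE letters occur in 9 of the 22 promoters of the list (40.9%), in 2823 of all 27443 protein-coding promoters of the same length (10.3%) and in 16 of 40 photosystem promoters (40.0%). An ABRE can overlap a G-box. The promoters of RAB18 (chr5:26519398-26519697, minus strand) and LEA7 (chr1:19619474-19619773, plus strand) are shown, with ABRE letters in capitals. RAB18 had the list's largest fall, and LEA7 the window with most matches among members whose call held throughout.
RAB18: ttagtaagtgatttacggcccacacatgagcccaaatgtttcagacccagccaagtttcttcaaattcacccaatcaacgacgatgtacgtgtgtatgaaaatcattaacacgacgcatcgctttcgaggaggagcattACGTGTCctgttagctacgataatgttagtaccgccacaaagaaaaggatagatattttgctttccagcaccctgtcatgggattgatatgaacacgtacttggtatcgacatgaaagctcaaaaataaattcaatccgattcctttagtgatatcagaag
LEA7: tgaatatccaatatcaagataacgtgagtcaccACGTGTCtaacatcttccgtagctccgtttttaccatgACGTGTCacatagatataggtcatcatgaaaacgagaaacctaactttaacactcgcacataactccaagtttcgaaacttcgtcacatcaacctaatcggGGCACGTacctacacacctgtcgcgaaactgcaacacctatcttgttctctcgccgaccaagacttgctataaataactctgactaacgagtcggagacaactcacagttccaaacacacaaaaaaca

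**Figure D2:**
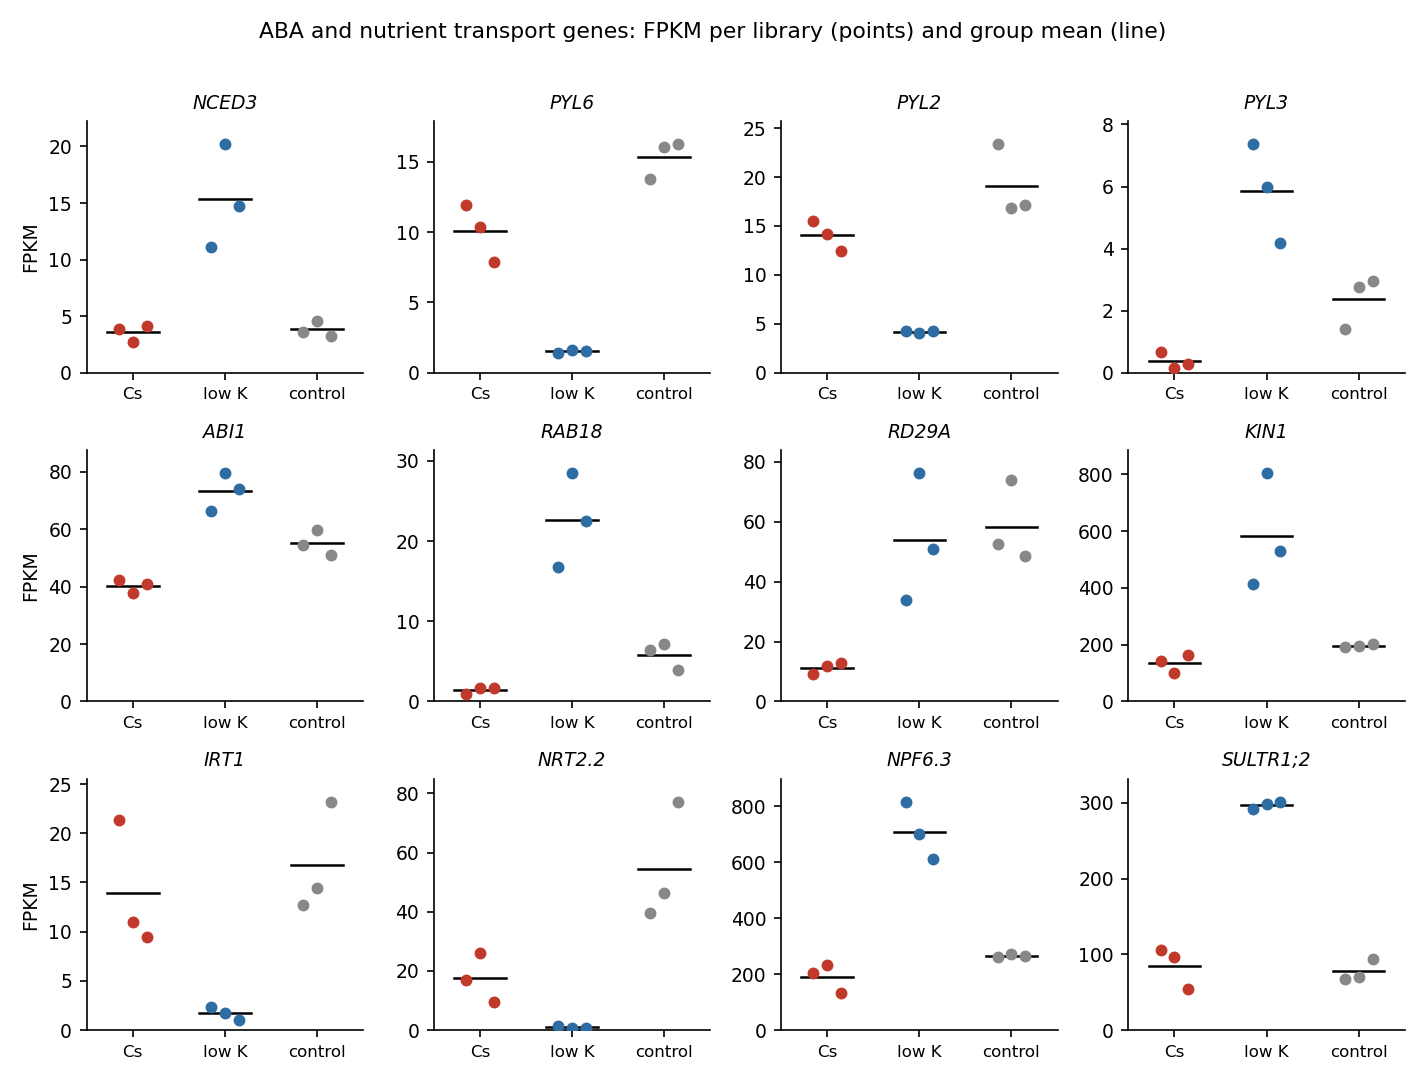
FPKM of 12 genes of ABA signalling and nutrient uptake in each library (points) with the group mean (line), on linear axes from 0, cesium left, low potassium next, control right. RAB18, KIN1, NCED3 and PYL3 were lower in the cesium libraries than in the low-potassium libraries, while PYL6 and PYL2 were higher.

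Photosynthesis genes encoded in the nucleus rose almost throughout, and the lists hold only such genes. Of 38 tested photosystem and light-harvesting genes 36 rose (94.7%) and none fell. Their median log2 change was 1.63 against -0.0029 over all genes tested, and all 8 tested Calvin cycle genes rose (median 1.60). Of 39 tested chloroplast-encoded genes 8 rose (20.5%, against 14.3% over all genes), 1 fell and 30 did not pass. Only 1 of those 8 rises held in every alternative that tested the gene. PSAG, a photosystem I subunit, had 63.4, 60.3 and 51.9 FPKM in cesium roots, against 14.4, 11.7 and 13.1 FPKM in low-potassium roots (log2 change 2.08 ± 0.11, adjusted p = 0.000111). LHCB3, an antenna protein, had 100.4, 83.6 and 80.0 FPKM in cesium roots, against 25.9, 26.6 and 24.3 FPKM in low-potassium roots (log2 change 1.74 ± 0.10, adjusted p = 0.000136). LHCB1.3 had the largest change of the list (2.81 ± 0.19), though it is one of several near-identical LHCB1 copies. These 3 lie in shared regions. Of the Calvin genes RBCS1A had 502, 354 and 298 FPKM in cesium roots, against 63.2, 73.2 and 57.7 FPKM in low-potassium roots (log2 change 2.53 ± 0.19, adjusted p = 0.000309), RBCS3B changed by 2.65 ± 0.30 and PRK by 1.96 ± 0.23; RBCS1A and RBCS3B are near copies among which reads can be split. Of 15 tested chlorophyll genes 6 rose, led by GUN4 (1.41 ± 0.13, adjusted p = 0.000658), PORB (2.12 ± 0.22, adjusted p = 0.000898) and CRD1 (1.65 ± 0.19, adjusted p = 0.00135).

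The summed FPKM of the photosystem list was 4363, 3783 and 2546 in cesium roots, against 1179, 1288 and 1080 in low-potassium roots, so every cesium library was above every low-potassium library. For 23 of the 36 photosystem genes and 7 of the 8 Calvin genes that passed, the control mean lay nearer to low potassium. Markers of shoots outside photosynthesis were mostly absent: 11 of the 14 were under 1 FPKM in all 6 libraries and 4 were at 0 in all. Their summed level was 58.8, 60.9 and 77.6 FPKM in cesium roots, against 27.6, 21.7 and 23.2 FPKM in low-potassium roots. Of the 3 tested, PDF1 (1.86 ± 0.16) and ATML1 (0.86 ± 0.16) rose and CER1 fell (-1.28 ± 0.16). The part of shoot tissue in the photosynthesis changes was not tested. The I-box letters occur in 19 of the 40 photosystem promoters (47.5%) and in 4020 of all 27443 (14.6%). The promoters of PSAF (chr1:11216092-11216391, minus strand) and LHCA1 (chr3:20341127-20341426, minus strand) are shown with I-box letters in capitals, as the list members with most matches among those whose call held throughout.
PSAF: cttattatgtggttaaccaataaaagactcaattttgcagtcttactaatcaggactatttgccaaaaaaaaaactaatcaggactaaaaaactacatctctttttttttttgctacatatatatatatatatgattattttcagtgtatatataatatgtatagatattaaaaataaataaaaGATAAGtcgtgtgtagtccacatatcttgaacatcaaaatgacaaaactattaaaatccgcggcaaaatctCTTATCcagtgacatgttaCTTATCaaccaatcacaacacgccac
LHCA1: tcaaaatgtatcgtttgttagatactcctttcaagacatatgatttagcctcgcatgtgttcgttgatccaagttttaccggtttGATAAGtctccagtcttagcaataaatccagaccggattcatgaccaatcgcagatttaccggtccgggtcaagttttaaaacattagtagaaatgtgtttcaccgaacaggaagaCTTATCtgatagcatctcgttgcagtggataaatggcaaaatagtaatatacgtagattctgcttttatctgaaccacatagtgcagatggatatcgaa

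Jasmonate is a wound and defence hormone whose JAZ repressors are themselves induced by it. Of 12 tested synthesis genes 7 rose and 1 fell, and of 17 tested signalling and breakdown genes 9 rose and 1 fell. The count of synthesis genes that rose was 3 without cesium replicate 1, 2 without cesium replicate 2, 4 without low-potassium replicate 1 and 4 without low-potassium replicate 3. JAZ3 had 58.5, 65.1 and 62.0 FPKM in cesium roots, against 27.1, 24.4 and 23.8 FPKM in low-potassium roots (log2 change 1.27 ± 0.088, adjusted p = 0.000209), and JAZ10 had 19.7, 16.7 and 20.7 FPKM in cesium roots, against 3.47, 5.14 and 2.88 FPKM in low-potassium roots (log2 change 2.07 ± 0.18, adjusted p = 0.000438), in a shared region. JAZ9 also rose (1.41 ± 0.13). CYP94B3, which breaks down the active hormone, fell (-1.72 ± 0.21, adjusted p = 0.00158). Of the synthesis enzymes LOX3 (1.35 ± 0.20, adjusted p = 0.00345), LOX4 (0.93 ± 0.16, adjusted p = 0.0056) and AOC4 (0.75 ± 0.15, adjusted p = 0.0088) led the rises, and AOC2 was the 1 gene that fell (-0.70 ± 0.19, adjusted p = 0.0283). MYC2, the central transcription factor, did not pass (0.06 ± 0.14, adjusted p = 0.779). AOC2 lost its call without cesium replicate 1 (adjusted p = 0.0645), without low-potassium replicate 1 (0.0983) or 3 (0.0906) or with no filter (0.0544); its adjusted p was 0.0124 to 0.0983 over the 16 alternatives.

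Nitrate uptake and signalling genes changed in both directions. Of 14 tested nitrate genes 6 rose and 3 fell. The high-affinity nitrate transporter NRT2.2 had 17.1, 26.1 and 9.58 FPKM in cesium roots, against 1.41, 0.682 and 0.624 FPKM in low-potassium roots (log2 change 3.21 ± 0.33, adjusted p = 0.000816), NRT2.4 had 4.30, 6.05 and 4.83 FPKM in cesium roots, against 0.613, 0.354 and 0.226 FPKM in low-potassium roots (log2 change 2.115 ± 0.17, adjusted p = 0.000368), and NRT2.6 and NRT1.8 rose as well (1.93 ± 0.14 and 2.89 ± 0.28). NRT2.1, the most abundant of them, had 1539.6, 1559 and 581 FPKM in cesium roots, against 490.1, 403 and 409.5 FPKM in low-potassium roots (log2 change 1.37 ± 0.36, adjusted p = 0.0273). NRT2.1 and NRT2.2 are near copies. NPF6.3, the dual-affinity nitrate transporter and sensor, had 205, 232 and 134 FPKM in cesium roots, against 816, 701 and 609 FPKM in low-potassium roots (log2 change -1.92 ± 0.21, adjusted p = 0.0011). LBD38 (-0.96 ± 0.093), a repressor of nitrate genes, and NLP7 (-0.60 ± 0.095), a nitrate sensor and regulator, fell. Control roots lay nearer to cesium for 8 of the 9 that passed. G6PD3 was the sixth to rise (0.46 ± 0.13, adjusted p = 0.0378). NRT2.1 lost its call without cesium replicate 1 (adjusted p = 0.0682) or 2 (0.0878), without low-potassium replicate 1 (0.0645), 2 (0.0904) or 3 (0.0793) or with no filter (0.0563); its adjusted p was 9.16e-05 to 0.0904 over the 16 alternatives. G6PD3 lost its call without cesium replicate 1 (adjusted p = 0.0979) or 2 (0.118), without low-potassium replicate 1 (0.0801), 2 (0.129) or 3 (0.0809) or with no filter (0.0573); its adjusted p was 0.00297 to 0.129 over the 16 alternatives.

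In nitrogen assimilation 2 rose and 6 fell of 17 tested, and without cesium replicate 3 the counts were 4 and 7, with the list's median log2 change at 0.05 against -0.32 with all libraries. ASN1, which makes asparagine, had 25.7, 33.2 and 15.5 FPKM in cesium roots, against 2.85, 2.93 and 1.88 FPKM in low-potassium roots (log2 change 2.81 ± 0.26, adjusted p = 0.000615), and ASN2 rose less (0.66 ± 0.11). GDH1, a glutamate dehydrogenase, had 29.1, 27.6 and 24.1 FPKM in cesium roots, against 61.2, 68.0 and 59.2 FPKM in low-potassium roots (log2 change -1.19 ± 0.10, adjusted p = 0.00043), and GLN1.1 (-0.87 ± 0.14, adjusted p = 0.00482), GLN1.2 (-1.29 ± 0.22, adjusted p = 0.00542), GLN1.4 (-0.55 ± 0.098, adjusted p = 0.00658), GDH2 (-0.89 ± 0.15, adjusted p = 0.00597) and GLT1 (-0.62 ± 0.11, adjusted p = 0.00733) also fell. In the sulfur list 3 rose and 5 fell of 15. SULTR2;1, a vascular sulfate transporter, had 30.5, 38.5 and 27.5 FPKM in cesium roots, against 10.2, 9.95 and 8.33 FPKM in low-potassium roots (log2 change 1.65 ± 0.14, adjusted p = 0.000424), whereas SULTR1;2, the root uptake transporter, had 105.2, 96.7 and 53.8 FPKM in cesium roots, against 292, 299 and 302 FPKM in low-potassium roots (log2 change -1.85 ± 0.23, adjusted p = 0.00172). SDI2 (-0.77 ± 0.11, adjusted p = 0.00257), SHM7 (-0.53 ± 0.089, adjusted p = 0.00517), SULTR2;2 (-0.79 ± 0.13, adjusted p = 0.00523) and APR3 (-0.32 ± 0.092, adjusted p = 0.0378) fell. APR1 (0.56 ± 0.15, adjusted p = 0.0308) and GGCT2;1 (0.64 ± 0.20, adjusted p = 0.0472) rose. APR3 lost its call without cesium replicate 1 (adjusted p = 0.0594) or 2 (0.121) or without low-potassium replicate 1 (0.111) or 2 (0.135). The call was also lost without the trend (0.051) or with replicate as a block (0.0603). Its adjusted p was 0.0267 to 0.135 over the 16 alternatives. APR1 lost its call without cesium replicate 1 (adjusted p = 0.0799) or 2 (0.099), without low-potassium replicate 2 (0.0733) or 3 (0.088) or with no filter (0.0506); its adjusted p was 0.00602 to 0.099 over the 16 alternatives. GGCT2;1 lost its call without cesium replicate 1 (adjusted p = 0.0925) or 2 (0.0956), without low-potassium replicate 1 (0.0861), 2 (0.113) or 3 (0.134), with no filter (0.0798) or under quantile normalization (0.0738); its adjusted p was 0.0138 to 0.134 over the 15 alternatives.

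In the iron list 7 rose and 5 fell of 22 tested, and the count that rose was 4 without cesium replicate 1, 3 without cesium replicate 2, 4 without low-potassium replicate 2 and 4 without low-potassium replicate 3. IRT1, the root iron importer, had 21.4, 10.9 and 9.43 FPKM in cesium roots, against 2.39, 1.78 and 1.08 FPKM in low-potassium roots (log2 change 2.38 ± 0.30, adjusted p = 0.00179). FRD3, which loads citrate into the xylem, rose (1.397 ± 0.13, adjusted p = 0.000631), as did FIT (0.58 ± 0.084, adjusted p = 0.00289), the regulator of iron uptake. IMA2 (-1.51 ± 0.11, adjusted p = 0.000222) and IMA1 (-1.37 ± 0.19, adjusted p = 0.00229), peptides induced by iron shortage, NRAMP1 (-1.17 ± 0.12, adjusted p = 0.000841), BHLH101 (-1.19 ± 0.15, adjusted p = 0.00195) and OPT3 (-0.89 ± 0.15, adjusted p = 0.00509) fell. Of 19 phosphate starvation genes 8 fell and none rose. Only PAP17 (-1.10 ± 0.17, adjusted p = 0.00374) held its call in every alternative that tested it. The count that fell was 3 without cesium replicate 2, 3 without low-potassium replicate 1, 1 without low-potassium replicate 2 and 5 without low-potassium replicate 3. PHO1;H1 (-0.48 ± 0.099, adjusted p = 0.011) and SQD2 (-0.88 ± 0.19, adjusted p = 0.0126) came next. For all 8 the control mean lay nearer to low potassium. PHO1;H1 lost its call without low-potassium replicate 2 (adjusted p = 0.0502); its adjusted p was 0.00615 to 0.0502 over the 15 alternatives. SQD2 lost its call without low-potassium replicate 2 (adjusted p = 0.0534); its adjusted p was 0.00157 to 0.0534 over the 16 alternatives.

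Aliphatic glucosinolate genes, which make sulfur-rich defence compounds from methionine, rose together: 10 of 12 tested (83.3%) rose and none fell, with a median log2 change of 1.93. MYB28, their master regulator, had 67.8, 77.8 and 71.2 FPKM in cesium roots, against 22.3, 16.0 and 21.6 FPKM in low-potassium roots (log2 change 1.82 ± 0.13, adjusted p = 0.000286). IPMDH1, an enzyme of side-chain elongation, had 298, 290.3 and 204 FPKM in cesium roots, against 63.9, 45.7 and 34.9 FPKM in low-potassium roots (log2 change 2.45 ± 0.23, adjusted p = 0.000658), in a shared region. BAT5, a transporter of the pathway, rose less (1.17 ± 0.10, adjusted p = 0.00051), and CYP83A1 rose most (2.71 ± 0.26). Control roots lay nearer to cesium for all 10. Indolic glucosinolate and camalexin genes gave 2 higher and 5 lower of 15, with the lower count at 3 without low-potassium replicate 1 and 3 without low-potassium replicate 2 and the higher count at 4 without cesium replicate 3. MYB51 (-0.96 ± 0.11, adjusted p = 0.00131), CYP81F2 (-1.34 ± 0.18, adjusted p = 0.00234) and CYP71A12 (-2.36 ± 0.35, adjusted p = 0.00313) fell, as did CYP79B3 (-0.59 ± 0.13, adjusted p = 0.015) and MYB122 (-0.49 ± 0.12, adjusted p = 0.0236). CYP81F1 (1.66 ± 0.20, adjusted p = 0.00158) and ASA1 (0.57 ± 0.087, adjusted p = 0.00359) rose. CYP79B3 lost its call without low-potassium replicate 1 (adjusted p = 0.0598) or 2 (0.0586); its adjusted p was 0.00408 to 0.0598 over the 16 alternatives. MYB122 lost its call without cesium replicate 2 (adjusted p = 0.0664), without low-potassium replicate 1 (0.0743), 2 (0.0728) or 3 (0.0708) or in the fit on 9 libraries (0.0539); its adjusted p was 0.00969 to 0.0743 over the 15 alternatives.

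Suberin, the waxy lamella of the endodermis, was described by 20 tested genes, of which 15 fell (75.0%) and none rose. FACT, an acyltransferase of suberin waxes, had 83.8, 67.3 and 54.0 FPKM in cesium roots, against 172, 204 and 240.2 FPKM in low-potassium roots (log2 change -1.58 ± 0.18, adjusted p = 0.00126). FAR4 (-1.18 ± 0.11, adjusted p = 0.000559) and FAR5 (-0.86 ± 0.093, adjusted p = 0.000998), reductases that make its fatty alcohols, also fell. The summed FPKM of the list was 534, 468 and 488 in cesium roots, against 916, 962 and 936 in low-potassium roots. For 11 of the 15 the control mean lay beyond low potassium, and for 13 it lay nearer to low potassium. Casparian strip genes gave 6 lower and 1 higher of 13: SGN1 (-0.90 ± 0.083, adjusted p = 0.000627), SGN3 (-0.96 ± 0.13, adjusted p = 0.00216) and CASP5 (-1.55 ± 0.23, adjusted p = 0.00347) led the falls, with RBOHF (-0.65 ± 0.10, adjusted p = 0.00412), PER64 (-0.58 ± 0.12, adjusted p = 0.0114) and CIF2 (-0.47 ± 0.12, adjusted p = 0.0211). CIF1, a peptide that guides the strip, rose (0.69 ± 0.14, adjusted p = 0.00936). The strip proteins CASP1 to CASP4 did not pass. CIF2 lost its call without cesium replicate 2 (adjusted p = 0.0583) or without low-potassium replicate 2 (0.0686); its adjusted p was 0.0064 to 0.0686 over the 16 alternatives.

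Of 15 cell division genes 11 rose (73.3%) and none fell, by 0.42 to 0.74, and 7 without low-potassium replicate 2 rose. KNOLLE, the syntaxin of the dividing wall, had 22.4, 26.1 and 26.3 FPKM in cesium roots, against 14.1, 15.3 and 14.0 FPKM in low-potassium roots (log2 change 0.74 ± 0.094, adjusted p = 0.00184), and AUR1 (0.55 ± 0.094, adjusted p = 0.00542) and CYCA1;1 (0.67 ± 0.12, adjusted p = 0.00725) followed. Their summed FPKM was 215, 236 and 246 in cesium roots, against 166, 157 and 167 in low-potassium roots, with the control mean nearer to cesium for all 11. Of 6 stem cell niche genes 3 rose: PLT2 (0.62 ± 0.14, adjusted p = 0.0168), PLT1 (0.57 ± 0.15, adjusted p = 0.0274) and CYCD6;1 (0.78 ± 0.20, adjusted p = 0.0228). None of 27 root hair growth genes passed in limma, with 1 at an unadjusted p under 0.05, and 1 rose without cesium replicate 3. RHD6, a regulator of hair initiation, had a log2 change of 0.25 ± 0.14, adjusted p = 0.226. Low-potassium replicate 3 had less of these transcripts than its group, with a list sum of 635, 743 and 464 FPKM in cesium roots and 875, 802 and 317 FPKM in low-potassium roots. Without that library 6 of the 27 passed, all lower (PRP1, PRP3, RHS15, XTH14, XTH26 and COW1). Of 8 root hair fate genes WER (0.61 ± 0.17, adjusted p = 0.0307) and GL3 (0.38 ± 0.11, adjusted p = 0.0406) rose, and CPC did not pass (0.27 ± 0.098, adjusted p = 0.0769). PLT2 lost its call without cesium replicate 2 (adjusted p = 0.0503) or without low-potassium replicate 1 (0.052) or 2 (0.0653); its adjusted p was 0.00534 to 0.0653 over the 16 alternatives. PLT1 lost its call without low-potassium replicate 1 (adjusted p = 0.069) or 2 (0.0961) or with no filter (0.0514); its adjusted p was 0.0119 to 0.0961 over the 16 alternatives. CYCD6;1 lost its call without low-potassium replicate 1 (adjusted p = 0.064), 2 (0.0787) or 3 (0.0598); its adjusted p was 0.0161 to 0.0787 over the 15 alternatives. WER lost its call without cesium replicate 2 (adjusted p = 0.0571) or 3 (0.0526), without low-potassium replicate 1 (0.0602), 2 (0.0516) or 3 (0.0775) or with no filter (0.0565); its adjusted p was 0.0221 to 0.0775 over the 16 alternatives. GL3 lost its call without cesium replicate 1 (adjusted p = 0.112), 2 (0.0771) or 3 (0.0553) or without low-potassium replicate 1 (0.125), 2 (0.0909) or 3 (0.0889). The call was also lost under quantile normalization (0.0924) or with replicate as a block (0.0749). Its adjusted p was 0.0179 to 0.125 over the 15 alternatives.

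Of 19 aquaporins 3 rose (15.8%, against 14.3% over all genes tested) and 6 fell (31.6%, against 14.6%). TIP2;3 had 27.5, 40.3 and 50.1 FPKM in cesium roots, against 179.6, 171 and 150.4 FPKM in low-potassium roots (log2 change -2.10 ± 0.20, adjusted p = 0.000658), TIP2;2 (-1.598 ± 0.15, adjusted p = 0.000604) fell as well, and PIP2;8 rose (1.03 ± 0.098, adjusted p = 0.000658). PIP1;5 (0.44 ± 0.12, adjusted p = 0.0327) and PIP1;4 (0.41 ± 0.12, adjusted p = 0.0342) were the others that rose. In the xylem wall list of 17, FRA8 fell (-0.97 ± 0.079, adjusted p = 0.000379) and VND6 rose (0.65 ± 0.19, adjusted p = 0.0419), and MYB63 did not pass (0.18 ± 0.10, adjusted p = 0.23). Of 8 phloem genes APL rose (0.57 ± 0.099, adjusted p = 0.00594), and SMXL5 (0.42 ± 0.14, adjusted p = 0.0582) and SUC2 (0.63 ± 0.24, adjusted p = 0.0861) did not pass. Without cesium replicate 3 the phloem genes that rose numbered 4. PIP1;5 lost its call without cesium replicate 1 (adjusted p = 0.086) or without low-potassium replicate 2 (0.0849) or 3 (0.0936); its adjusted p was 0.0123 to 0.0936 over the 16 alternatives. PIP1;4 lost its call without cesium replicate 1 (adjusted p = 0.0818) or 2 (0.0887) or without low-potassium replicate 1 (0.0846), 2 (0.0726) or 3 (0.108); its adjusted p was 0.00972 to 0.108 over the 16 alternatives. VND6 lost its call without cesium replicate 1 (adjusted p = 0.0537) or 2 (0.107), without low-potassium replicate 1 (0.128), 2 (0.0608) or 3 (0.112), with no filter (0.0649) or under quantile normalization (0.0679); its adjusted p was 0.0163 to 0.128 over the 15 alternatives.

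Stress and clock genes gave smaller groups. Of 16 tested heat shock genes 5 fell (31.2%, against 14.6% over all genes tested) and 2 rose (12.5%, against 14.3%). The count that fell was 3 without cesium replicate 3, 3 without low-potassium replicate 1 and 3 without low-potassium replicate 2. HSP18.2 had 9.73, 9.13 and 4.64 FPKM in cesium roots, against 62.7, 102 and 61.0 FPKM in low-potassium roots (log2 change -3.12 ± 0.29, adjusted p = 0.000599). HSP22.0 (-1.93 ± 0.29, adjusted p = 0.00328) and HSA32 (-0.63 ± 0.10, adjusted p = 0.00465) fell, and HSP17.6II rose (1.22 ± 0.18, adjusted p = 0.00304). HSP70B (-0.40 ± 0.11, adjusted p = 0.0297) and HSP26.5 (-0.73 ± 0.20, adjusted p = 0.0328) fell and HSFA2 rose (0.74 ± 0.17, adjusted p = 0.0169). Of 12 oxidative stress genes CSD2, a superoxide dismutase, was the 1 that passed (0.74 ± 0.092, adjusted p = 0.00162), while CSD3 (-0.24 ± 0.079, adjusted p = 0.0563) and OXI1 (0.28 ± 0.10, adjusted p = 0.0836) did not. Without cesium replicate 3 the list had 2 higher and 1 lower. Of 13 clock genes 5 fell and 1 rose. The morning genes LHY, with 10.8, 9.83 and 8.80 FPKM in cesium roots, against 18.6, 23.3 and 22.4 FPKM in low-potassium roots (log2 change -1.05 ± 0.12, adjusted p = 0.00111), and CCA1 (-1.07 ± 0.15, adjusted p = 0.00235) fell, as did PRR9 (-0.68 ± 0.11, adjusted p = 0.00457), RVE8 (-0.77 ± 0.15, adjusted p = 0.00818) and ELF3 (-0.31 ± 0.078, adjusted p = 0.0221), and LUX rose (0.32 ± 0.091, adjusted p = 0.0361). The time of day of harvest is not given in the labels. HSP70B lost its call without cesium replicate 1 (adjusted p = 0.0696) or 3 (0.0528), without low-potassium replicate 1 (0.106), 2 (0.0826) or 3 (0.0533) or with no filter (0.0512); its adjusted p was 0.0118 to 0.106 over the 16 alternatives. HSP26.5 lost its call without cesium replicate 2 (adjusted p = 0.0957) or 3 (0.0599), without low-potassium replicate 1 (0.0538) or 2 (0.0858) or with no filter (0.056); its adjusted p was 0.0221 to 0.0957 over the 15 alternatives. HSFA2 lost its call without cesium replicate 2 (adjusted p = 0.0635) or without low-potassium replicate 2 (0.0616) or 3 (0.056); its adjusted p was 0.00602 to 0.0635 over the 15 alternatives. ELF3 lost its call without cesium replicate 2 (adjusted p = 0.0522) or without low-potassium replicate 1 (0.0617), 2 (0.07) or 3 (0.0746); its adjusted p was 0.0159 to 0.0746 over the 16 alternatives. LUX lost its call without cesium replicate 1 (adjusted p = 0.0769), 2 (0.0867) or 3 (0.0505) or without low-potassium replicate 1 (0.0667), 2 (0.0728) or 3 (0.103). The call was also lost with replicate as a block (0.0581). Its adjusted p was 0.0136 to 0.103 over the 16 alternatives.

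Of 20 ethylene genes 4 fell (2 without low-potassium replicate 2) and none rose: EBF2 (-0.79 ± 0.082, adjusted p = 0.000874), EIN2 (-0.47 ± 0.095, adjusted p = 0.0104), ACS6 (-0.73 ± 0.15, adjusted p = 0.0124) and ETR1 (-0.55 ± 0.12, adjusted p = 0.0149). Without cesium replicate 3 there were 2 ethylene genes higher, and 1 without low-potassium replicate 2. In the auxin transport list PIN5 rose (0.98 ± 0.19, adjusted p = 0.00914) and AUX1 did not pass (0.31 ± 0.11, adjusted p = 0.0604). Of 11 early auxin genes IAA3 (-0.68 ± 0.12, adjusted p = 0.00587) and LBD16 (-0.35 ± 0.10, adjusted p = 0.0398) fell, IAA2 did not pass (0.40 ± 0.15, adjusted p = 0.0802), and 1 rose without cesium replicate 3 or low-potassium replicate 2. Of 8 type-A cytokinin response regulators ARR6 (-0.65 ± 0.15, adjusted p = 0.0182) and ARR3 (-0.52 ± 0.13, adjusted p = 0.0233) fell, and ARR4 did not pass (-0.38 ± 0.13, adjusted p = 0.0717). Of 3 tested defence genes WRKY33 fell (-0.90 ± 0.080, adjusted p = 0.000531) and WRKY40 rose (1.09 ± 0.25, adjusted p = 0.0175), and WRKY70 did not pass (-0.60 ± 0.21, adjusted p = 0.0749). ACS6 lost its call without low-potassium replicate 2 (adjusted p = 0.0533); its adjusted p was 0.00661 to 0.0533 over the 16 alternatives. ETR1 lost its call without low-potassium replicate 1 (adjusted p = 0.0575) or 2 (0.0564); its adjusted p was 0.00445 to 0.0575 over the 16 alternatives. LBD16 lost its call without cesium replicate 1 (adjusted p = 0.106) or 2 (0.0952) or without low-potassium replicate 1 (0.0969), 2 (0.135) or 3 (0.0689). The call was also lost with no filter (0.0638) or with replicate as a block (0.0618). Its adjusted p was 0.0257 to 0.135 over the 16 alternatives. ARR6 lost its call without low-potassium replicate 2 (adjusted p = 0.0728) or 3 (0.0625); its adjusted p was 0.00591 to 0.0728 over the 16 alternatives. ARR3 lost its call without cesium replicate 1 (adjusted p = 0.0626) or 2 (0.0784) or without low-potassium replicate 1 (0.063), 2 (0.085) or 3 (0.0617); its adjusted p was 0.00158 to 0.085 over the 16 alternatives. WRKY40 lost its call without low-potassium replicate 1 (adjusted p = 0.0617) or 3 (0.0565); its adjusted p was 0.00507 to 0.0617 over the 15 alternatives.

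**Figure D3:**
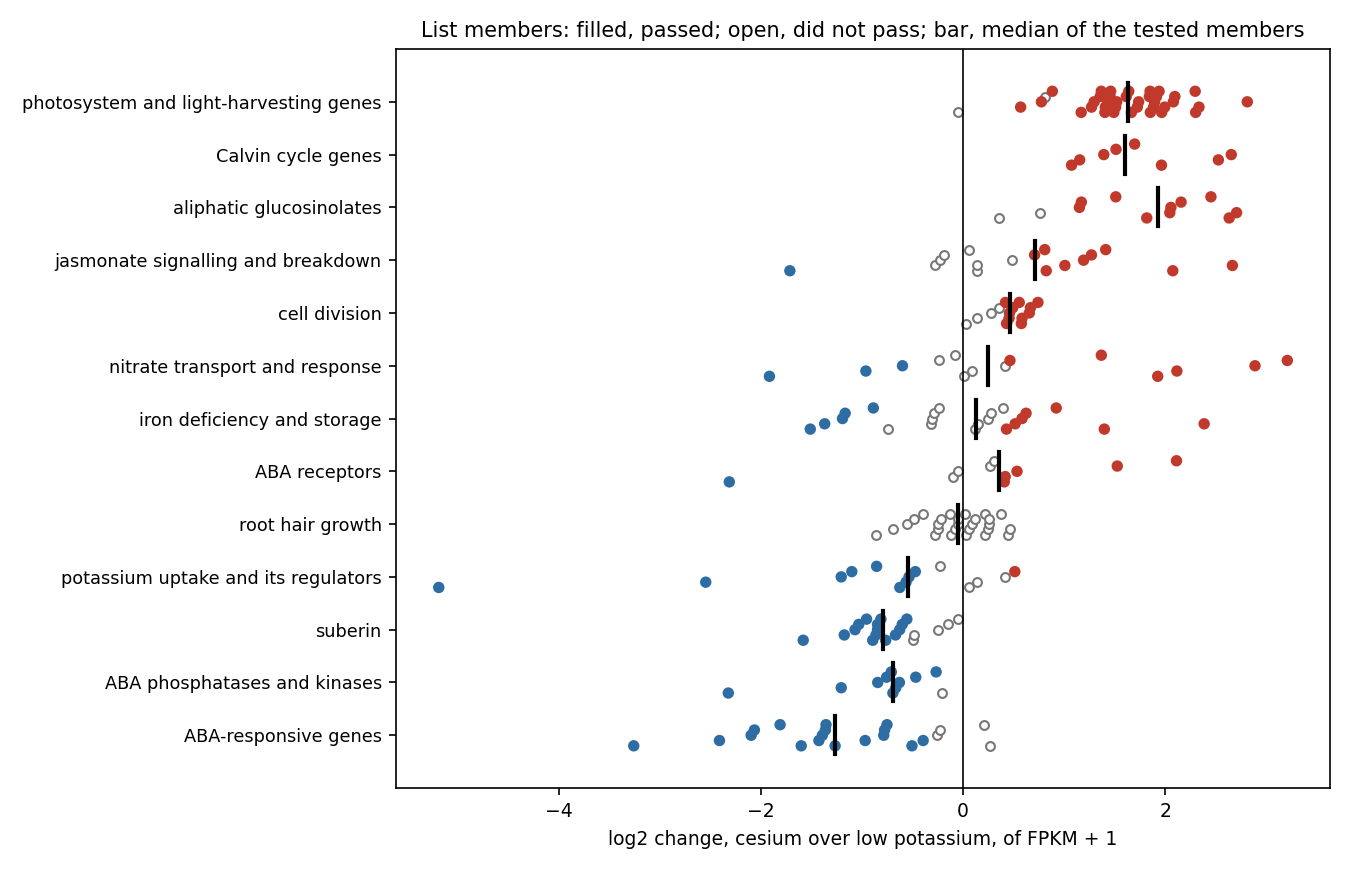
Log2 change, cesium minus low potassium, of each tested member of 13 lists (points: filled where the gene passed, open where it did not) with the list median (bar). The medians of the photosystem, Calvin cycle and aliphatic glucosinolate lists were above 0, at 1.63, 1.60 and 1.93, and those of the ABA-responsive and suberin lists were below 0, at -1.27 and -0.79.

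**Figure D4:**
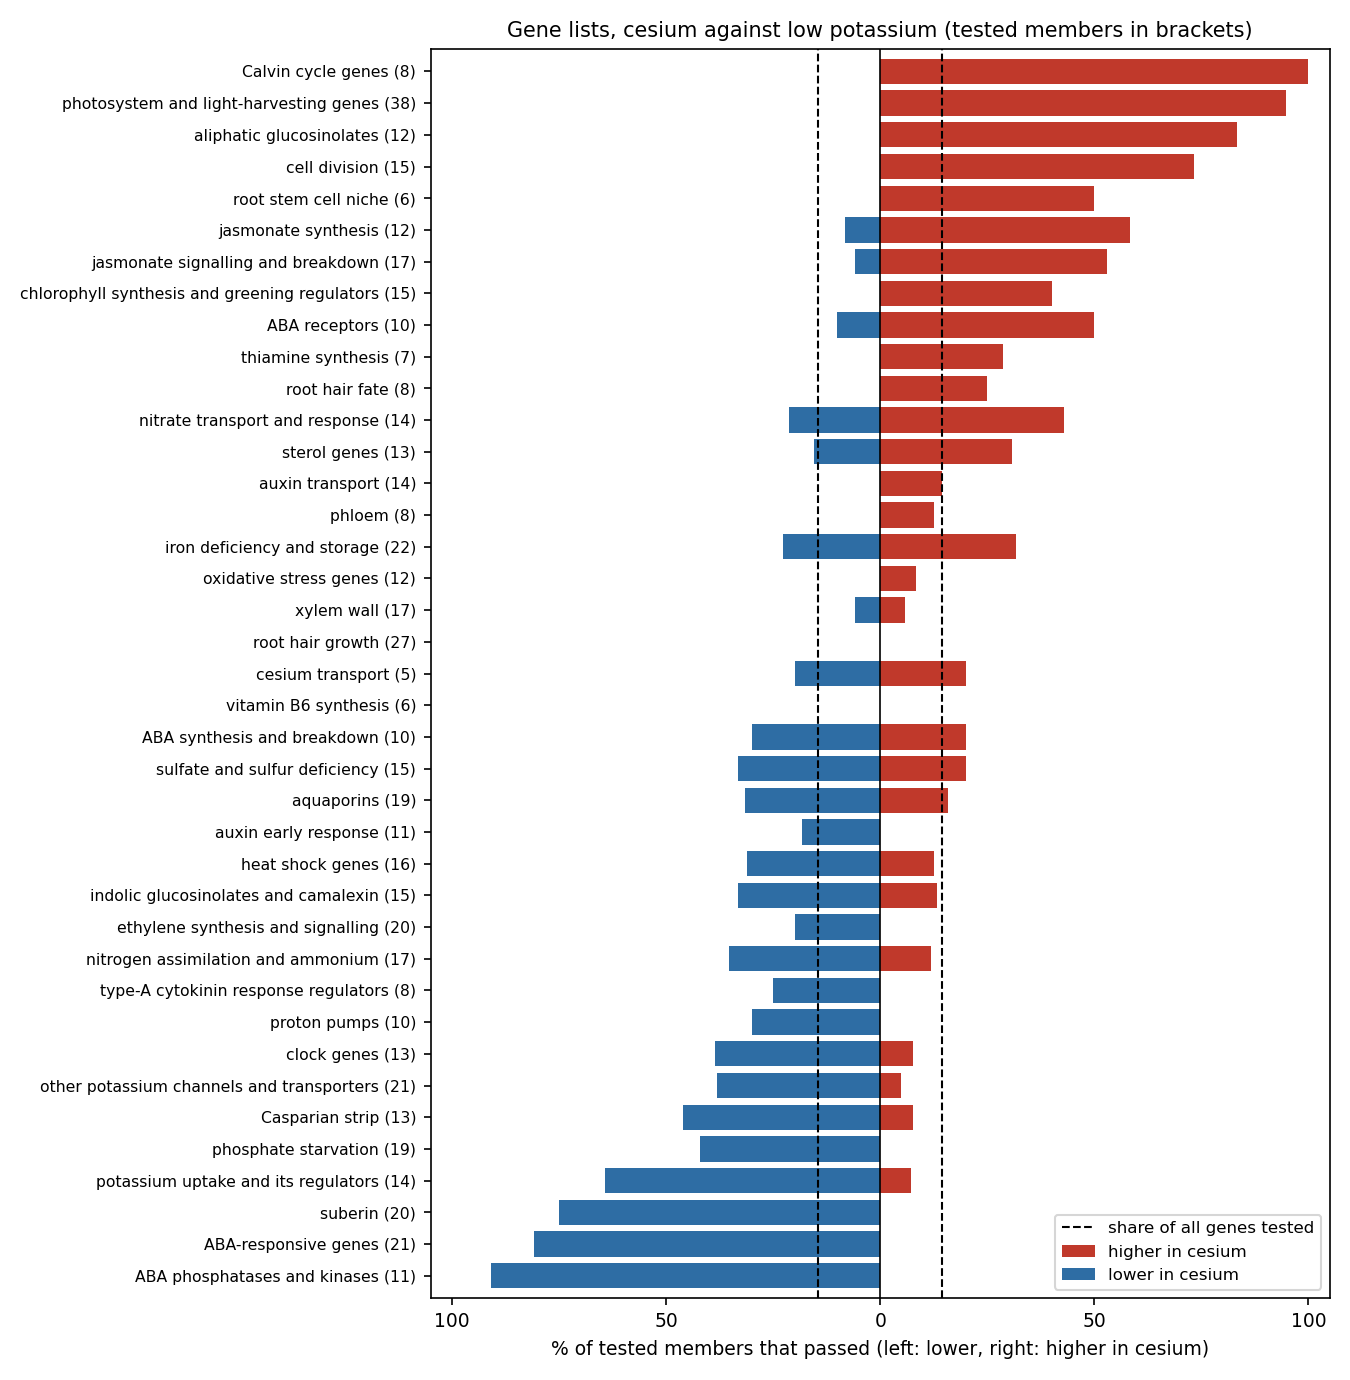
Percent of the tested members of each list with 5 or more tested genes that were higher (right) or lower (left) in cesium roots, with dashed lines at the shares over all genes, 14.3% higher and 14.6% lower. The photosystem, Calvin cycle and aliphatic glucosinolate lists went furthest to the right, and the ABA phosphatase and kinase, ABA-responsive and suberin lists furthest to the left.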

How the data were processed

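The authors deposited 1 file per library with FPKM for each gene. The submitters' processing notes name the TAIR10 build and the tools STAR 2.5.0c, Bowtie2 2.3.4.1 and Cufflinks 2.2.1, without saying which step each did. Trizol RNA and strand-specific libraries are stated per the labels' protocols. Whether reads were counted by strand is not stated, so genes in shared regions are uncertain. FPKM scaling makes each value relative to all others in its library, and absolute depth is unknown.

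From these files, 5 genes holding 6 values with a status other than OK were left out. The values were transformed as log2(FPKM + 1), genes averaging 1 FPKM or more across the 6 libraries were kept, and limma 3.58.1 (R 4.3.3) with a trend was fitted, with Benjamini-Hochberg adjustment and a threshold of 0.05. Groups came from the labels. The script was tested on simulated data. Tables were made in Python 3.11.15. Gene names were matched for 37045 identifiers against RefSeq TAIR10.1, whose genome also gave the promoter windows.

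The members and gene lists were chosen with earlier results of these data known. Named genes were the 12 highest and 12 lowest changes among passing genes with no overlap and a mean of at least 5 FPKM in the higher group, HAK5, AKT1, THIC and THI1, and from each list the 3 smallest adjusted p or every member of a count of 5 or fewer, and from each of the described families (ribosomal, WRKY and NAC) the 2 smallest adjusted p. One gene that the list rule names is not reported here. Other members given to fill out a list were chosen after their values were seen. The fit was repeated with pseudocounts of 0.1 and 0.5, without the filter, with a 5 FPKM filter, after quantile or median-ratio scaling, on all 9 libraries, with replicate as a block, with no trend, with a robust trend, and without each library in turn.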

Additional observations from a re-analysis of the deposited data

How the results depend on the processing

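Of 195 genes named by the rule that passed, 156 kept their call in every one of the 16 alternatives that tested them. The other 39 lost it under 1 or more, and none changed sign. A gene below the filter of an alternative was not tested there. The count of passing genes was 5640, and leaving out 1 library moved it between 3061 and 6120, those higher between 1521 and 3005 and those lower between 1540 and 3115. With a log2 change of at least 1 also required, 1036 genes passed, 497 higher and 539 lower. No replicate pairing is stated in the labels. The deviations of same-numbered cesium and low-potassium libraries correlated at 0.019, 0.0985 and 0.28, and 1 of 3 cesium libraries correlated best with its own number. Replicate 3 had the lowest value on the second principal component in both groups (-0.73 for cesium, -0.27 for low potassium). These values do not settle whether same-numbered libraries shared a batch. With a replicate block 5588 genes passed, and 5 genes given in the text lost their call (SMT3, APR3, GL3, LUX and LBD16, with adjusted p from 0.0581 to 0.0749). Under the block 3 root hair growth genes fell against 0 without it, and 4 phloem genes rose against 1. The block also added 1 ethylene and 1 oxidative stress gene, and 2 genes linked to cesium transport fell against 1. The 9-library fit called 6727, no filter 5304 and a filter of 5 FPKM 4681. Leaving out cesium replicate 3, which stood apart, changed no named gene's direction. Absolute depth is unknown, so no limit from counting can be given. The median log2 changes of the potassium uptake, ABA-responsive, ABA phosphatase and kinase, photosystem, Calvin cycle, suberin, cell division and aliphatic glucosinolate lists kept their sign under median-ratio scaling, quantile normalization, the block, and without each library in turn.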

Other observations

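Ribosomal protein genes were higher in cesium roots: of 296 tested 233 rose and 4 fell, with a median log2 change of 0.48. The count that rose was 145 without cesium replicate 2, 107 without low-potassium replicate 1 and 112 without low-potassium replicate 2, and the count that fell was 2 without cesium replicate 2, 2 without low-potassium replicate 1, 1 without low-potassium replicate 2 and 2 without low-potassium replicate 3. Of the 153 with a mean of at least 100 FPKM, 139 rose and none fell, while over all 1336 genes at that level 24.9% rose and 15.5% fell, and the 139 became 90 without cesium replicate 2, 61 without low-potassium replicate 1 and 66 without low-potassium replicate 2. PSRP3/1, a plastid ribosomal protein gene in a shared region, had 11.0, 8.73 and 9.48 FPKM in cesium roots, against 4.21, 4.32 and 3.62 FPKM in low-potassium roots (log2 change 1.08 ± 0.12). AT3G58660 had 57.1, 62.1 and 58.0 FPKM in cesium roots, against 35.4, 35.4 and 38.9 FPKM in low-potassium roots (log2 change 0.68 ± 0.083). The control mean lay nearer to cesium for 202 of the 237 that passed. WRKY factors went the other way, with 20 of 56 lower (35.7%, against 14.6% over all genes) and 5 higher, led by WRKY33 and WRKY14, and NAC factors had 26 of 73 lower (35.6%) and 10 higher, led by NAC100 and AT3G12977. The higher WRKY count was 2 without cesium replicate 1, 3 without cesium replicate 2, 2 without low-potassium replicate 1, 3 without low-potassium replicate 2 and 2 without low-potassium replicate 3, and the higher NAC count 5 without cesium replicate 1, 6 without cesium replicate 2, 6 without low-potassium replicate 1, 4 without low-potassium replicate 2 and 6 without low-potassium replicate 3. The lower WRKY count was 13 without low-potassium replicate 1 and the lower NAC count 17 without low-potassium replicate 1, 16 without low-potassium replicate 2 and 15 without low-potassium replicate 3.

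The rise of AIR1 was shared by its neighbour AT4G12545. Other genes of the same stretch of chromosome 4 differed: EARLI1, in a shared region, had 632, 529 and 289 FPKM in cesium roots, against 551, 596 and 728 FPKM in low-potassium roots, and AT4G12520 had 20.9, 24.0 and 97.4 FPKM in cesium roots, against 28.5, 20.9 and 23.3 FPKM in low-potassium roots. Around LCR85 the adjacent small peptide gene AT4G22212 had 153, 128 and 341 FPKM in cesium roots, against 26.1, 17.56 and 19.1 FPKM in low-potassium roots, and AT4G22230 had 63.7, 52.8 and 63.0 FPKM in cesium roots, against 13.9, 12.04 and 11.6 FPKM in low-potassium roots. The peptide genes AT4G22214 (1.75 ± 0.16), AT4G22235 (1.00 ± 0.17, in a shared region) and AT4G22217 (0.65 ± 0.19) rose less. AT4G22217 lost its call without cesium replicate 2, without any 1 low-potassium library or with no filter. ISU1 (0.20 ± 0.095) and AT4G22240 (-0.10 ± 0.14) of the same stretch did not pass. These neighbours were chosen after their values were seen.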
